A study of Mus musculus with 13 samples.

Results

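The comparison described here sets methionine synthase knockout mice against wild-type mice when both had been given the SIRT1 agonist SRT2104, using the histone mark H3K4me3 in the hippocampus. It takes 7 of the 13 libraries of the study, chosen by their labels as the 4 knockout libraries with SRT2104 (2 female, 2 male) and the 3 wild-type libraries with SRT2104 (1 female, 2 male). Both groups were gavaged with SRT2104 at a dose of 50 mg/kg, 3 times per week and 9 times in all, starting on day 15 and ending on day 36, so genotype differs while treatment is matched. The knockouts carry the genotype label TC;MLML_MTR-KO and the wild types MLML-WT, both on C57BL/6, and the labels do not spell out TC or MLML. In the knockouts Cre was driven by the Thy-1.2 promoter and removed floxed exons 4 and 5 of Mtr in the central nervous system. The other 6 libraries are 2 untreated knockouts, both female and not labelled as gavaged, and 4 wild types given the DMSO and PEG vehicle, all male. Sex was read from the letter in each column name, and the labels do not state the age at sampling or whether each library is a separate mouse. The p-values therefore measure the spread between these libraries, which may be technical.

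H3K4me3 is placed on nucleosomes around active promoters by the SET1 and MLL methyltransferase complexes, some of which are recruited to CpG-rich DNA by the CXXC protein Cfp1. Methionine synthase, encoded by Mtr, remethylates homocysteine to methionine using cobalamin, and methionine is the precursor of S-adenosylmethionine, the methyl donor of these enzymes. SIRT1 is an NAD-dependent deacetylase of histones and transcription regulators that is expressed in neurons.

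A single promoter region, that of Thy1, passed the test between knockout and wild type given SRT2104, and its H3K4me3 was higher in the knockouts. Among 13492 autosomal regions, each a stretch with H3K4me3 signal that overlaps at least 1 promoter window, 1 had an adjusted p under 0.05 (0.00741% of regions), with 1 higher and 0 lower (limma, Benjamini-Hochberg over all regions). At an unadjusted p under 0.05 there were 910 regions, 731 higher (5.42%) and 179 lower (1.33%) in the knockouts, and edgeR on the recovered reads also called 1 region. The median log2 difference, knockout minus wild type on log2(value + 1), was 0.03, and 67.9% of regions lay above 0. That share was 49.0% with TMM scaling, 49.3% with loess scaling and 49.5% with edgeR, and 59.3% without wild-type replicate 1, where the median was 0.01. Differences were small: 74.8% of regions lay within 0.1 of 0 on the log2 scale and 94.4% within 0.2. The median 95% confidence interval of a region reached 0.13 to either side of its log2 difference.

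Depth and quality varied between libraries. Reads in regions ranged from 6256255 to 9009109 in the knockouts and from 3963196 to 8805949 in the wild types. Wild-type replicate 1, a female, was the shallowest, with a median of 277 reads per region, the lowest quality weight (0.385) and the score farthest from 0 on the first principal component (-18.2, against -6.69 to 9.29 for the other 6 libraries). Of 12 genes expected in hippocampal neurons, 11 had a region, and of 9 markers of other tissues 1 had one, Actn2. Mean levels of the 11 ran from 104 to 1087 normalised reads. Actn2 had 224, above the lowest of the 11. In bulk tissue, fewer cells of a type and less H3K4me3 per cell cannot be told apart.

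Thy1 encodes a glycophosphatidylinositol-anchored surface protein abundant on neurons. Its region (mm9 chr9:43851054-43853496, overlapping the promoter) had normalised read counts of 1284, 1310, 1263 and 1042 in the knockouts, against 778, 674 and 669 in the wild types. Every knockout lay above every wild type, and the group means were 1225 ± 123 in the knockouts (SD, n = 4) and 707 ± 61.4 in the wild types (SD, n = 3). The log2 difference was 0.79 (SE 0.08, 95% interval 0.62 to 0.96, limma adjusted p = 0.00106). It was 0.71 between females and 0.80 between males. The Cre transgene carries a Thy-1.2 promoter, and reads from that copy and from the gene itself cannot be told apart in this region. The call was lost with TMM scaling (log2 difference 0.75, limma adjusted p = 0.259), with cyclic loess scaling (0.74, limma adjusted p = 0.685) and with males only (0.80, limma adjusted p = 0.606).

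The Thy1 region also differed between libraries without SRT2104. The untreated knockouts had 1260 and 1082 normalised reads, against 588, 607, 766 and 636 in the vehicle wild types, a log2 difference of 0.85. In the comparison with SRT2104, no other region around Thy1 passed the test. The nearest, at Usp2, which encodes a deubiquitinase, lay 23.3 kb away with a log2 difference of 0.06 (limma adjusted p = 0.826). Of 72 other regions within 5 Mb, 0 passed the test by limma and 2 had an unadjusted p under 0.05. Their median log2 difference was 0.02, and the range was -0.63 to 0.17. The lowest was at a weakly marked region, with means of 17.9 normalised reads in the knockouts and 21.4 in the wild types.

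**Figure D1:**
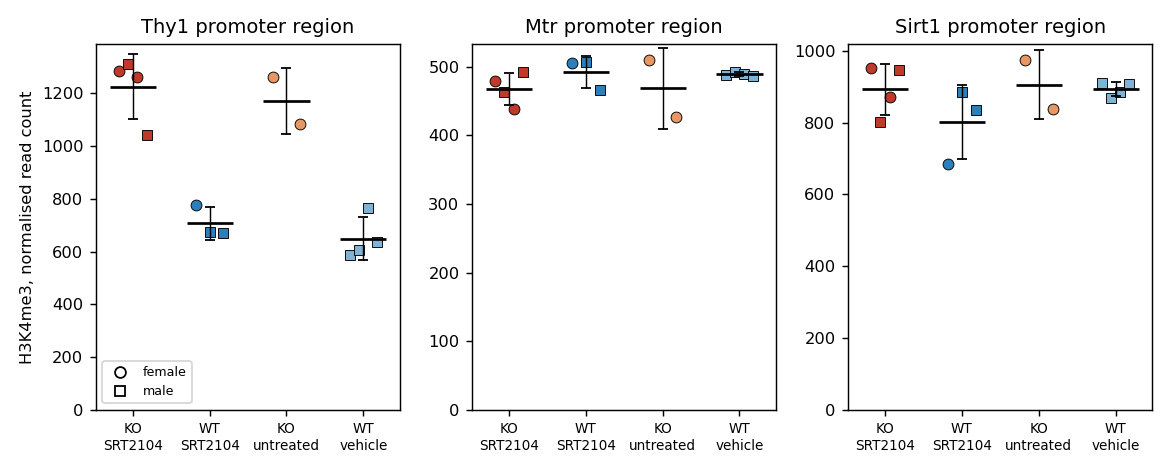
Normalised H3K4me3 read counts (y axis, from 0) of the Thy1, Mtr and Sirt1 promoter regions in every library of 4 groups, with the mean (line) and SD (bar), circles for females and squares for males. At Thy1 the knockouts with SRT2104 lie between 1042 and 1310, above the wild types with SRT2104 at 669 to 778, while at Mtr and Sirt1 the groups overlap.

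The promoter of Mtr itself did not pass the test. Its region (mm9 chr13:12349305-12350575) had 479, 463, 438 and 493 normalised reads in the knockouts, against 505, 507 and 466 in the wild types. The groups overlapped, with a log2 difference of -0.07 (SE 0.06, 95% interval -0.20 to 0.05, limma adjusted p = 0.752). The removed exons lie downstream of this promoter, so the region does not check the knockout. Within 5 Mb of Mtr, 0 of 27 other regions passed the test by limma and 0 had an unadjusted p under 0.05, with log2 differences from -0.06 to 0.11.

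Sirt1, which encodes the deacetylase that SRT2104 acts on, had 952, 802, 872 and 947 normalised reads in the knockouts, against 686, 885 and 836 in the wild types (mm9 chr10:62800635-62802383). The lowest value was that of wild-type replicate 1, and the groups overlapped. The log2 difference was 0.16 (95% interval -0.02 to 0.34, limma adjusted p = 0.708). It was 0.41 between females, where wild-type replicate 1 is the only wild type, and 0.02 between males.

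**Figure D2:**
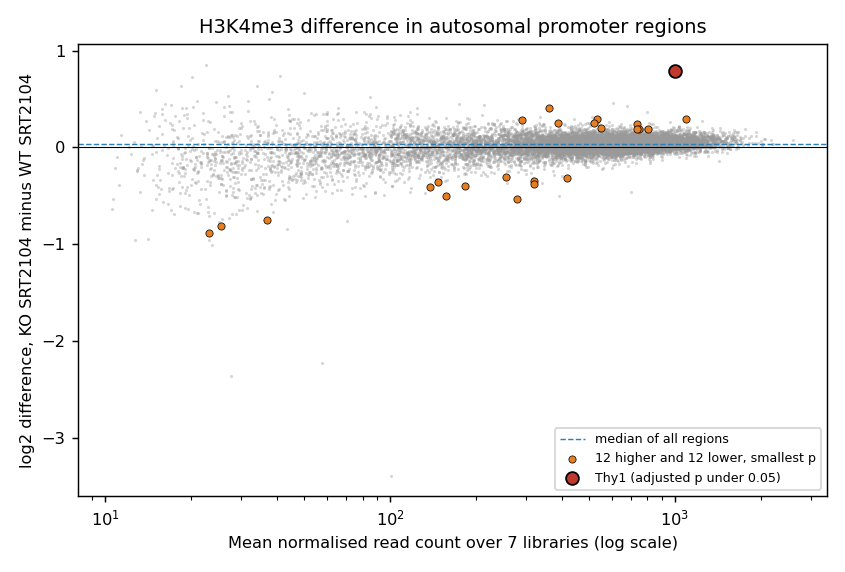
Log2 difference between knockout and wild type, both with SRT2104 (y axis), against the mean normalised read count over the 7 libraries (x axis, log scale), with 1 grey point per autosomal region and orange points for the regions with the smallest p in each direction. Thy1, at 0.79, lies above the other regions with similar counts, and the scatter is wider at low counts.

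The promoters of Mtr and of the regions next in order of p are shown because CpG-rich DNA is where this mark is placed. Each line gives the 250 bases before the annotated start of the gene, 5′ to 3′ on the gene's strand, from RefSeq (GRCm38.p6, a later build than the mm9 of the regions), with CpG dinucleotides in capitals.
Mtr: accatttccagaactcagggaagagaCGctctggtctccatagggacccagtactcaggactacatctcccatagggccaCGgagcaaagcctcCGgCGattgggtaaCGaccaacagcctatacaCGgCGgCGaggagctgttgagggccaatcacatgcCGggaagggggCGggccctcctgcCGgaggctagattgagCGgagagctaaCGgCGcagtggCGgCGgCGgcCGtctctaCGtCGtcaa
Klk8: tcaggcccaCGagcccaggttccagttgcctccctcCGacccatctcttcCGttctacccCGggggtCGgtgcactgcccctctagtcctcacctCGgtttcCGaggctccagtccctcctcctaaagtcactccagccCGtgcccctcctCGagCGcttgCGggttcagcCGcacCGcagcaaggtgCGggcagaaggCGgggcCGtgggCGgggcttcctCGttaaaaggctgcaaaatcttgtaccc
Gabra5: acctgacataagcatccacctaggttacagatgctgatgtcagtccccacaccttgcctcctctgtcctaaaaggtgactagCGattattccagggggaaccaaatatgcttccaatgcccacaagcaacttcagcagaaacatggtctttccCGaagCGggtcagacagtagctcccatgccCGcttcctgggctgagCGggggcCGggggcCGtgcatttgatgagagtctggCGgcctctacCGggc
Csnk2a2: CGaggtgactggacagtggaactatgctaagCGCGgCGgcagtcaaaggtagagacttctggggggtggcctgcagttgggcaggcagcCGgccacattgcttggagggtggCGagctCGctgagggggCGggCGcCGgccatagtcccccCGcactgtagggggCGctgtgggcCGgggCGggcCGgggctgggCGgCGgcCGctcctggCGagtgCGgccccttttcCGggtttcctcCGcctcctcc
These stretches are chr13:12258114-12258363 (minus strand) for Mtr, chr7:43797327-43797576 (plus) for Klk8, chr7:57510060-57510309 (minus) for Gabra5 and chr8:95488821-95489070 (minus) for Csnk2a2. They hold 20, 18, 9 and 22 CpGs in that order, and 82.1%, 78.3%, 59.7% and 85.2% of mouse promoter entries hold fewer. The GC box GGGCGG, counted on both strands, was found 3 times in Csnk2a2, 1 time each in Mtr and Klk8 and 0 times in Gabra5, and 32.7% of 32851 promoter entries hold it.

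Across all regions the difference varied with CpG content and with the level of the mark. CpG counts could be assigned to 10802 of 13492 regions (80.1%). In 4 bins of about equal size, from fewest CpGs to most, the median log2 difference was 0.0003, 0.03, 0.04 and 0.06, while the median normalised read count was 342, 502, 600.0 and 745. A stricter matching, of 1 gene to 1 region and 1 promoter entry, reached 47.3% of regions and gave -0.0002, 0.03, 0.04 and 0.06. In 4 bins by level alone the medians were -0.01, 0.03, 0.04 and 0.05 from lowest to highest. In the highest bin the library medians, relative to the wild-type mean, were 0.11, 0.01, 0.03 and 0.06 in the knockouts, against -0.05, 0.02 and 0.03 in the wild types. The libraries of both groups overlapped, and the part of depth and of single libraries in this gradient was not tested.

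Beyond Thy1, the 11 regions higher in the knockouts with the smallest p did not pass the test, and all 11 had a limma adjusted p of 0.708. In these regions every knockout lay above every wild type, which held for 678 regions in all (5.03%), and the regions were picked by p, so nothing is read from it. Gabra5, an alpha subunit of the GABA-A receptor that is abundant in hippocampal pyramidal neurons, had 649, 579, 544 and 537 normalised reads in the knockouts, against 458, 460 and 490 in the wild types. Its log2 difference was 0.29 (SE 0.06, mm9 chr7:64763701-64765624), and 0.04 between untreated knockouts and vehicle wild types. Csnk2a2, a catalytic subunit of casein kinase 2, had 833, 724, 780 and 818 in the knockouts, against 655, 674 and 668 in the wild types (log2 difference 0.24, SE 0.05).

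Others of the 11 encode regulators of chromatin, signalling and the cell surface. Bmi1, a Polycomb repressive complex 1 protein, averaged 1185 ± 64.4 normalised reads in the knockouts and 971 ± 108 in the wild types (log2 difference 0.29). That difference was 0.51 between females, where wild-type replicate 1 (846) is the only wild type, and 0.17 between males. Mmp24, a membrane-type matrix metalloproteinase, averaged 561 ± 39.0 in the knockouts and 469 ± 20.3 in the wild types (log2 difference 0.25, and 0.35 without SRT2104). Rai1, a chromatin-associated protein, Frat1, an inhibitor of the kinase GSK3, and Podxl2, a sialomucin, were also among the 11. So were Alg8, a glucosyltransferase of N-glycan assembly, Lemd1 and the shared region of Gm12992 and Tmem200b. Log2 differences in these regions ran from 0.19 to 0.40. The largest, at Gm12992 and Tmem200b, was 0.73 between females and 0.22 between males.

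The 12 regions lower in the knockouts with the smallest p did not pass the test either (limma adjusted p 0.708 for each). Every knockout lay below every wild type in 11 of the 12, Sstr3 being the exception, and in 230 regions in all (1.7%); the choice by p fixes much of this. Klk8, which encodes neuropsin, a secreted serine protease of the hippocampus, had 259, 295, 302 and 288 normalised reads in the knockouts, against 370, 370 and 353 in the wild types (log2 difference -0.35, SE 0.07, mm9 chr7:51051872-51053567). The vehicle wild types lay lower than the wild types with SRT2104, at 324, 264, 237 and 272. Sstr3, the somatostatin receptor of neuronal primary cilia, had 234, 281, 217 and 205 in the knockouts, against 372, 371 and 280 in the wild types (log2 difference -0.53, SE 0.12). DESeq2 on the recovered reads called Sstr3 lower. Without SRT2104 its log2 difference had the opposite sign, at 0.70. Its means there were 424 ± 18.2 in the untreated knockouts and 267 ± 77.4 in the vehicle wild types.

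Transcription factors and synaptic genes were among the 12. Zbtb20, a repressor that specifies hippocampal CA1 neurons, averaged 377 ± 35.6 normalised reads in the knockouts and 470 ± 52.6 in the wild types (log2 difference -0.32, -0.55 between females and -0.17 between males). The Pax6 region, shared with Pax6os1, belongs to a factor of neural progenitors and averaged 121 ± 11.1 in the knockouts and 161 ± 13.5 in the wild types. Sv2b, a synaptic vesicle glycoprotein that shares its region with 1500012K07Rik, averaged 285 ± 47.3 in the knockouts and 369 ± 24.8 in the wild types (log2 difference -0.38). Cntnap5c, a neurexin family protein, Fxyd7, a regulator of the sodium pump, Folh1, a glutamate carboxypeptidase, and Thsd4, a matrix protein, had log2 differences of -0.40, -0.30, -0.36 and -0.50. The remaining regions were weakly marked: Ankrd6 averaged 28.3 in the knockouts and 48.5 in the wild types, and 9230104L09Rik averaged 16.3 in the knockouts and 32.1 in the wild types. Hoxc13, a homeobox gene, had a log2 difference of -0.81.

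**Figure D3:**
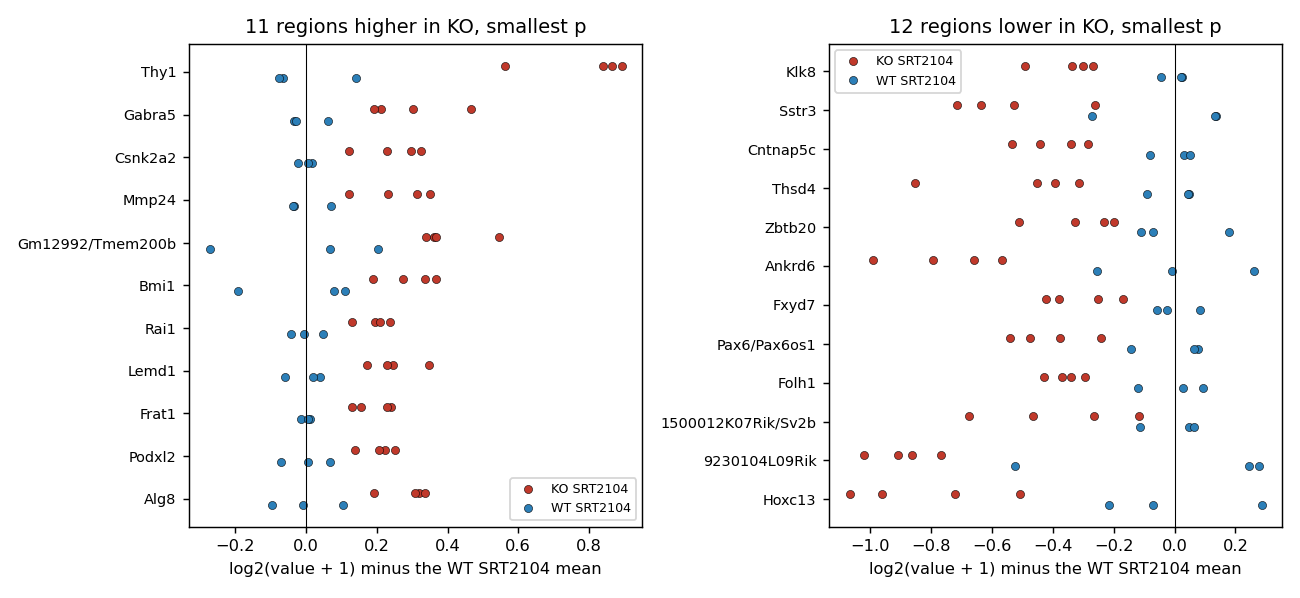
Log2(value + 1) of each library minus the mean of the wild types with SRT2104 (x axis) for 11 of the 12 regions higher (left) and the 12 lower (right) in the knockouts with the smallest p, with red points for knockout and blue for wild-type libraries. Only Thy1 passed the test, and the spread of the points is widest for weakly marked regions such as Ankrd6 and Hoxc13.

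The genes of the pathway that was disrupted were described as lists, each gene counted once. Thy1, the sole call of limma and edgeR, is in none of the lists. In the methionine and folate cycle, 0 of 33 regions passed the test by limma. Of these, 3 were higher and 0 lower at an unadjusted p under 0.05, beside 5.42% and 1.33% of all regions. Above 0 lay 23 of the 33 (69.7%), beside 67.9% of all regions. The median log2 difference was 0.03, beside 0.03 over all regions (near 0 with TMM or loess scaling). Ahcy, which hydrolyses S-adenosylhomocysteine, the product and inhibitor of methylation, had 519, 446, 483 and 494 normalised reads in the knockouts, against 383, 449 and 453 in the wild types. The groups overlapped, and its log2 difference was 0.18 (95% interval 0.04 to 0.33, limma adjusted p = 0.708). Srm, spermidine synthase, differed by 0.14, and Sardh, sarcosine dehydrogenase, by -0.34 at 35.9 to 48.2 normalised reads in the knockouts and 48.6 to 61.3 in the wild types. Of 17 genes of cobalamin transport and processing, 0 passed by limma or had an unadjusted p under 0.05, and the median was 0.03, turning to -0.004 with TMM scaling, -0.005 with loess scaling and -0.002 without wild-type replicate 1.

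Genes that write, read and remove the mark held no region that passed. Of 23 genes of the H3K4 methyltransferase complexes, 20 (87%) lay above 0 with a median of 0.06. The median was 0.03 with TMM and 0.009 with loess scaling, and 0.03 without wild-type replicate 1. Over all regions 67.9% lay above 0 with a median of 0.03. In the highest of 4 bins by level, from 745 normalised reads up, 85.1% lay above 0 with a median of 0.05. The list had a median of 867 normalised reads in the knockouts. Of its members 0 passed the test, and 2 were higher and 0 lower at an unadjusted p under 0.05. Over all regions 5.42% were higher and 1.33% lower at that p. Setd1a, a catalytic subunit of a SET1 complex, had 1112, 1048, 1048 and 1120 normalised reads in the knockouts, against 879, 987 and 1079 in the wild types, with overlap. Of 24 demethylases and readers, 20 (83.3%) lay above 0 with a median of 0.07 and 0 passed. That median was 0.03 with TMM and 0.01 with loess scaling, and 0.02 without wild-type replicate 1. Phf2, a demethylase that binds the mark, differed by 0.22. Of 25 genes of DNA methylation and its removal, 0 passed. At an unadjusted p under 0.05, 6 of them were higher and 2 lower, beside 5.42% and 1.33% of all regions. The median of this list was 0.06. It was 0.03 with TMM and 0.03 with loess scaling, and 0.01 without wild-type replicate 1. The medians of the H3K4 methyltransferase list by library, relative to the wild-type mean, were 0.11, 0.03, 0.04 and 0.07 in the knockouts, against -0.06, 0.03 and 0.03 in the wild types, with wild-type replicate 1 the lowest.

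The lists of SIRT1 substrates and of sirtuin and NAD genes held no region that passed. Of 30 known SIRT1 substrates, 26 (86.7%) lay above 0 with a median of 0.08 (0.04 with TMM and 0.03 with loess scaling). Without wild-type replicate 1 the median was 0.04, with 21 of 30 above 0. Over all regions 67.9% lay above 0, and in the highest of 4 bins by level 85.1%. Of the substrates 2 were higher and 1 lower at an unadjusted p under 0.05, beside 5.42% and 1.33% of all regions. Ppargc1a, the coactivator PGC-1alpha that SIRT1 deacetylates, had 603, 565, 591 and 604 normalised reads in the knockouts, against 642, 647 and 650 in the wild types. All 4 knockouts lay below the wild types, which held for 1 of the 30 substrates (3.33%) and 1.7% of all regions. The log2 difference of Ppargc1a was -0.13 (95% interval -0.23 to -0.03, limma adjusted p = 0.708). Creb1, an activity-dependent transcription factor, differed by 0.18. Of 20 sirtuin and NAD genes the median was 0.03 (-0.002 with TMM and -0.009 with loess scaling), 0 passed by limma and 0 had an unadjusted p under 0.05.

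Lists of cell type markers lay on either side of the median. Of 37 myelin and oligodendrocyte genes, 31 (83.8%) lay above 0, beside 67.9% of all regions. Without wild-type replicate 1, 20 of the 37 lay above 0 (54.1%), beside 59.3% of all regions. The median of the list was 0.07 (0.04 with TMM and 0.07 with loess scaling). It was 0.02 without wild-type replicate 1 and 0.14 without wild-type replicate 3. In 6 of the 37 (16.2%, against 5.03% of all regions) every knockout lay above every wild type. Cldn11, a tight junction protein of myelin, had 347, 349, 371 and 322 normalised reads in the knockouts, against 265, 308 and 317 in the wild types (log2 difference 0.23, limma adjusted p = 0.708). Ugt8a, which makes galactocerebroside, and Zfp536, a zinc finger protein, differed by 0.20 and 0.19. Without SRT2104 the same list had a median of -0.22, so the sign differed between the comparisons. By library its medians were 0.04, 0.11, 0.09 and 0.08 in the knockouts, against -0.11, 0.03 and 0.08 in the wild types, and the summed normalised reads ranged from 12654 to 12865 in the knockouts and from 11237 to 12616 in the wild types.

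Of 43 astrocyte genes, 16 lay above 0 and the median was -0.03. It was -0.07 with TMM and -0.06 with loess scaling, and ran from -0.05 without knockout replicate 3 to -0.01 without knockout replicate 1. In 5 of them (11.6%, against 1.7% of all regions) every knockout lay below every wild type. Apoe, a lipid carrier, had 281, 305, 321 and 338 normalised reads in the knockouts, against 366, 346 and 356 in the wild types (log2 difference -0.20, limma adjusted p = 0.708). S100b, a calcium-binding protein, differed by -0.32. The summed reads of the list overlapped, at 19654 to 20916 in the knockouts and 20201 to 20716 in the wild types, and without SRT2104 the list median was 0.15. Of 24 microglial genes 1 was higher and 0 lower at an unadjusted p under 0.05, beside 5.42% and 1.33% of all regions. Above 0 lay 6 of the 24, with a median of -0.06. That median was -0.10 with TMM and -0.02 with loess scaling (11 of 24 above 0 with loess). It ran from -0.10 without wild-type replicate 3 to -0.02 without wild-type replicate 2. Of 44 vascular genes the median was -0.004, and it ran from -0.05 without knockout replicate 1 to 0.03 without wild-type replicate 2. Of 26 choroid plexus and ependymal genes the median was 0.06, but -0.005 without wild-type replicate 1. The microglial, vascular, choroid and myelin lists had medians of 129, 149, 175 and 263 normalised reads in the knockouts. In the lowest of 4 bins by level, up to 305 normalised reads, 45.7% of regions lay above 0 with a median of -0.01. The part of cell composition and of level in these list values was not tested.

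Neuronal lists held no region that passed. Of 55 genes of the excitatory postsynapse the median was 0.03, but -0.01 without wild-type replicate 2 (25 of 55 above 0) and 0.05 without wild-type replicate 1 (47 of 55). Grik3, a kainate receptor subunit, had 597, 582, 633 and 561 normalised reads in the knockouts, against 503, 408 and 537 in the wild types (log2 difference 0.30, limma adjusted p = 0.708). Of 54 presynaptic genes the median was 0.04, and of 38 GABAergic genes 0.02 (0.06 without knockout replicate 2 and 0.01 without knockout replicate 4). Of 43 hippocampal excitatory neuron genes 4 were higher and 3 lower at an unadjusted p under 0.05, beside 5.42% and 1.33% of all regions. Their median was 0.04. It was 0.01 without knockout replicate 1 or wild-type replicate 2, and 0.07 without knockout replicate 4. Of 82 oxidative phosphorylation genes the median was 0.02, and of 78 ribosomal protein genes 0.01 (0.005 and -0.001 without wild-type replicate 1). Under TMM, loess or both, the medians of the postsynaptic, presynaptic, GABAergic, hippocampal, oxidative phosphorylation and ribosomal lists turned below 0. The 17 clustered protocadherins had the lowest median, -0.10, which was 0.04 without wild-type replicate 1, at a median of 22.5 normalised reads in the knockouts and 23.5 in the wild types.

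**Figure D4:**
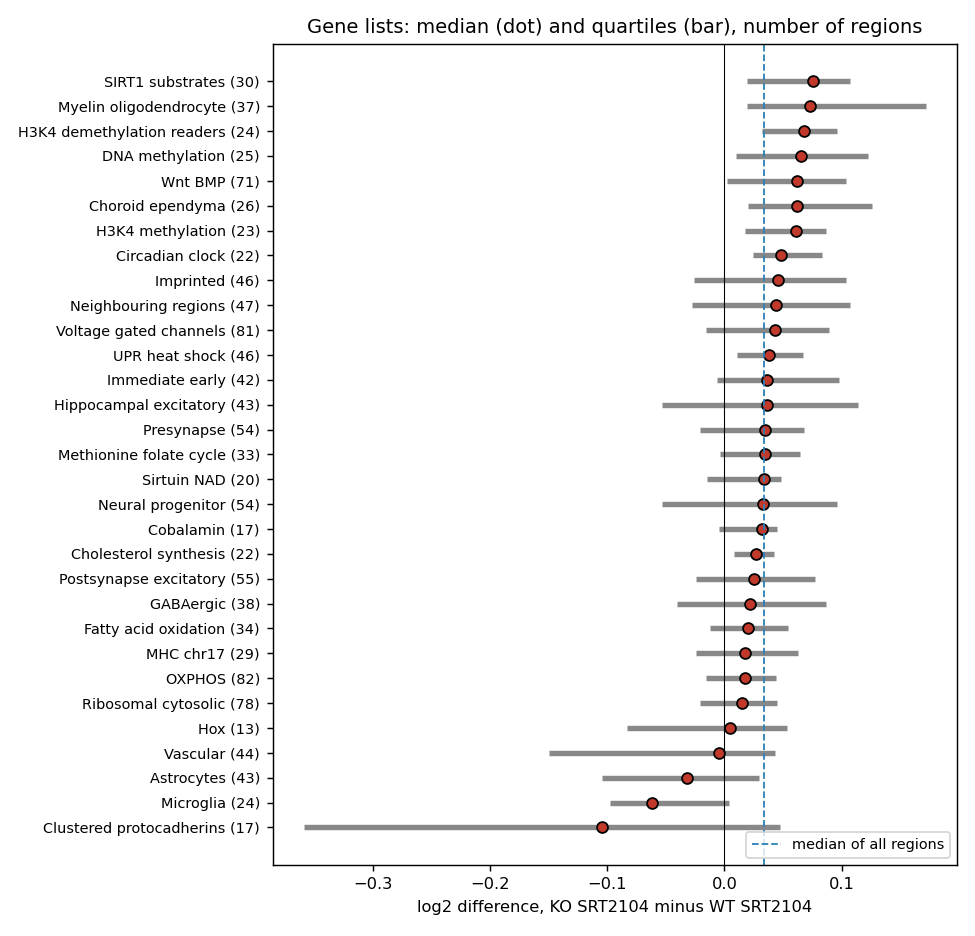
Median (dot) and quartiles (bar) of the log2 difference between knockout and wild type with SRT2104 for 31 gene lists, with the number of regions in brackets and the median of all regions as a dashed line. No list held a region that passed the test, and medians ran from -0.10 for the clustered protocadherins to 0.08 for SIRT1 substrates, with several of those near 0 changing sign under TMM or loess scaling. Without wild-type replicate 1 these were 0.04 for the protocadherins and 0.04 for SIRT1 substrates.

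The same genotype difference can be set beside that of the 6 libraries without SRT2104, which share no library with it. Sex and gavage differ with genotype there and cannot be told apart from it. Across 13492 regions the 2 log2 differences had Pearson r = -0.14 and Spearman rho = -0.14, as a description over regions that share libraries. Of the 12 regions higher with SRT2104, 11 were above 0 without it, beside 65.3% of all regions, and of the 12 lower, 5 were below 0, beside 34.7% of all regions. The wider sets did not show this excess. Of the 731 regions higher at an unadjusted p under 0.05, 61.0% were above 0 without SRT2104. Of the 179 lower at that p, 30.2% were below 0. The test of the difference between the genotype effects passed for 0 of 13492 regions (0%, limma, smallest adjusted p = 0.127), with 1067 at an unadjusted p under 0.05, and edgeR also called 0. Without vehicle wild-type replicate 3 the count was 267 (91 higher, 176 lower), without vehicle wild-type replicate 1 it was 1 and without untreated knockout replicate 1 it was 2. Thsd4 was among the 6 regions with the smallest p, with a log2 difference of -0.50 with SRT2104 and 0.52 without it.

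**Figure D5:**
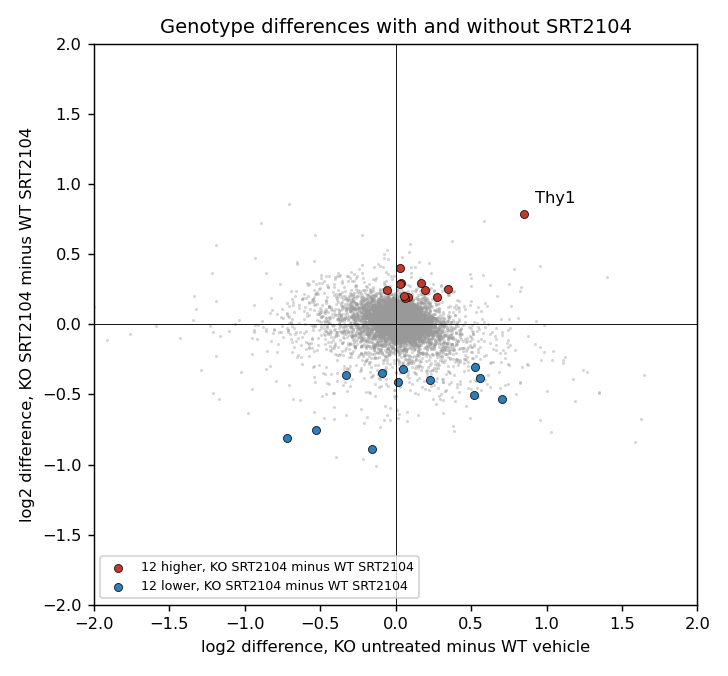
Log2 difference of knockout minus wild type with SRT2104 (y axis) against that of untreated knockout minus vehicle wild type (x axis), 1 point per region, with the 12 regions higher (red) and 12 lower (blue) marked. The axes stop at 2 on either side, which leaves out 11 regions, and Thy1 is the only marked region far above 0 on both axes.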

How the data were processed

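H3K4me3 was measured in mouse hippocampus by chromatin immunoprecipitation followed by sequencing. The authors deposited a normalised signal per region and library, in which all values (100%) were whole multiples of a library-specific step within 0.001 reads. The submitters' processing notes list the build mm9 together with MACS2, DESeq2, Bowtie2, bedtools and SAMtools, with neither version nor role. How regions were called, and whether input was used, is not given here. The authors also deposited group means, a log2 fold and a p-value with its FDR for another comparison, whose calculation is not given, and these were not used. After merging 17212 lines, 14006 distinct regions were left, of which 13495 are autosomal, and 3 were removed by a minimum of 10 in at least 3 of the 7 libraries.

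The test was limma 3.58.1 (R 4.3.3) on log2(value + 1) of the deposited signal, with a mean trend and robust variances, two-sided, adjusted by Benjamini-Hochberg at 0.05. The log2 scale understates changes of weak regions. The design allowed for raw counts, and limma was used because the values are scaled. edgeR 4.0.16 and DESeq2 1.42.0 were run on the recovered reads as alternatives, and all 100% of values came out whole. Python 3.11.15, pandas 2.3.3 and matplotlib 3.10.9 were used for tables and plots, and the fit was tested on simulated data. PCR copies cannot be told apart, so depth covers counting error only.

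The members, the 33 gene lists and the tests were chosen with earlier results of these data known. Named were Mtr, Sirt1 and Thy1, the 12 regions with the smallest p in each direction, and up to 4 list members with the smallest p; some of these genes are not reported here by name. Hdhd3 and Alad, and 3 regions with a log2 difference beyond 2, were chosen after their values were seen. CpG counts were first matched to regions with 1 gene, 1 region and 1 promoter entry, which reached 47.3% of regions, under the 80% that such a check needs. The matching was then widened to any gene of a region, with older symbols and the mean of several entries, which reached 80.1%, and both results are given. Alternatives added after seeing the data were variances that are not robust under each scaling, males only, and counts without the first replicate of each group.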

Additional observations from a re-analysis of the deposited data

Results flagged for a closer look

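In 142 groups of 4 knockout libraries with SRT2104, 1 per named region, and 3 groups of 4 vehicle wild types, 6 held a library far from the other 3 by Dixon's criterion at 95%, and chance gives about 1 in 20. Among the knockouts, replicate 1 was high at the region of Gm12992 and Tmem200b (443.2 normalised reads, the others 384 to 391), at Setd7 (1289, the others 1170 to 1180) and at Ugt8a (581.9, the others 503 to 516). Replicate 2 was low at Calr (694.6, the others 730 to 737) and at Atp5j2 (533.3, the others 586 to 596). Replicate 3 was low at Scap (525.6, the others 571 to 579). None of these regions passed the test between knockout and wild type.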

How the results depend on the processing

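The Thy1 difference kept its direction under all 24 alternatives, and leaving out single libraries gave log2 differences of 0.75 to 0.87. The number of regions called was 1, and 0 with TMM scaling, 0 with cyclic loess scaling, 0 with males only (247 at an unadjusted p under 0.05), 2 with DESeq2 (Thy1 and Sstr3) and 2 with the replicate block (Hdhd3 and Thy1). With TMM and loess scaling there were 725 and 715 at an unadjusted p under 0.05, and with variances that are not robust Thy1 was called under both (adjusted p 0.00292 and 0.00624). Leaving out single libraries gave 1 to 3, the 3 being Hdhd3, Alad and Thy1 without knockout replicate 4. The difference between genotype effects gave 0 to 267 calls when single libraries were left out. The cause of these changes was not tested. Deviations of same-numbered libraries correlated at -0.15, -0.33 and -0.10. Libraries of different numbers were not compared, so these values cannot show whether replicate numbers pair the libraries. Over 145 named regions, 3444 of 3464 values kept direction and side of the threshold, 3 lost a call (all Thy1), 4 gained one and 13 changed sign, none of them called. The sign changes were Zfp143 (-0.00703 with quality weights, -0.0271 with males only, and -0.0117 to 0.0930 when single libraries were left out), Clybl (-0.0336) and Kl (-0.0382) with males only, Nnt (-0.0121 to 0.299 when single libraries were left out), Prox1 (-0.00568 with loess scaling, robust or not, and -0.00491 to 0.112 when single libraries were left out) and Actn2 (-0.00429 with TMM scaling, robust or not, and -0.0458 to 0.0871 when single libraries were left out). Of the medians of the 33 lists, 336 values stayed within the spread between libraries and 27 moved beyond it. With TMM and loess scaling the median of all regions was -0.002 and -0.001 in place of 0.03, so signs of small differences depend on the scaling. The shallowest library, with 3963196 reads, limits what can be seen in weak regions.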

Other observations

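Hdhd3 and Alad, neighbouring genes on chromosome 4, were chosen after their values were seen. Hdhd3, a phosphatase family gene, had 691, 833, 710 and 521 normalised reads in the knockouts with SRT2104, against 484, 501 and 492 in the wild types with SRT2104. Alad, which encodes an enzyme of haem synthesis, had 804, 932, 747 and 578 in the knockouts, against 536, 548 and 593 in the wild types. Neither passed the test (limma adjusted p 0.708 for each). The untreated knockouts and vehicle wild types lay at 687 to 898 and 672 to 892 for Hdhd3, so the wild types with SRT2104 were the low group.

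The 3 regions with a log2 difference beyond 2 all lie on proximal chromosome 17. In each of them the libraries were split into high and low within every group except the wild types with SRT2104, which were all high. Dynlt1b, a dynein light chain gene (mm9 chr17:6428893-6429983), had 1.24, 0, 99.0 and 167 normalised reads in the knockouts with SRT2104, against 126, 136 and 178 in the wild types with SRT2104. It had 149 and 0 in the untreated knockouts, against 0, 158, 0 and 159 in the vehicle wild types. Rnaset2b, a ribonuclease gene, and the region of Ermard, Gm3417, Gm3448 and Tcte3 had values under 4 in the same 5 libraries. Low values thus occurred in both genotypes, and these regions did not pass the test (limma adjusted p 0.729, 0.742 and 0.729).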
